A study of Mus musculus with 36 samples.

Results

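The choroid plexus epithelium genes described here are 31 mouse genes that mark, or are abundant in, the epithelial sheet which secretes cerebrospinal fluid inside the brain ventricles. They were taken by symbol from a list, and 31 of 31 were among the 24421 gene symbols of the tables. Poly(A) RNA of mouse hippocampus was sequenced in 36 libraries, 6 groups of 6 with 3 females and 3 males each. The aging arm held C57BL/6 mice: young (8 months), old (18 months) and old nanoligomer (18 months). The transgenic arm, aged 4 months, consisted of APP/PS1 mice, a model of amyloid deposition, of APP/PS1 nanoligomer mice and of their non-carrier littermates. A nanoligomer is a short synthetic antisense molecule, and the series title names NF-kB and NLRP3, 2 regulators of inflammation, as what was downregulated. Untreated groups are labelled as controls; dose, length of treatment, vehicle and the promoter of the transgenes are not stated in the labels. The labels name no animal for a library, so p-values measure the spread between libraries.

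The choroid plexus is a folded tissue of epithelial cells on a vascular core, and a part of it lies in the lateral ventricle along the edge of the hippocampus. Its cells carry transthyretin to the cerebrospinal fluid, move sodium, chloride, bicarbonate and water by pumps, channels and water pores, and are joined by leaky tight junctions that hold claudin-2. Transthyretin RNA in particular is so abundant in these cells that it is the usual marker of choroid plexus in brain tissue. In bulk RNA, fewer cells of a type, in the brain or in the piece of tissue taken, and less RNA per cell cannot be told apart.

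Recovered reads numbered 27.6 to 46.3 M in 35 libraries. The last, female 3 of the APP/PS1 nanoligomer group, held 0.913 M and was left out, so that group has n = 5 (2 females, 3 males). Levels are counts per M reads (CPM), and fold changes come from limma fits to the deposited normalized counts of each comparison's own table. Summed levels of 12 hippocampal neuron markers were 267 to 1302 CPM. Libraries also differed in RNA of regions near the ventricle. Summed levels of 12 striatal projection neuron markers were above 700 CPM in 5 libraries: old nanoligomer female 3 (2678 CPM), APP/PS1 female 1 (2490), young male 2 (1514), APP/PS1 nanoligomer male 2 (1312) and old male 3 (711). Summed thalamus and habenula markers reached 1092 CPM in young male 1, where the next of the 35 libraries held 405.

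Ttr, which encodes the thyroxine and retinol carrier transthyretin, was the most abundant of the 31 genes per length, with a median of 61.8 CPM per kb of exon over 35 libraries. It lies on chromosome 18 from 20665280 to 20674321 (GRCm38, plus strand) and is annotated, like the other 30, as protein-coding. Its level ran from 5.37 CPM in young male 2 to 3747 CPM in young male 1, a 698-fold range within 1 group. In young libraries it had a lowest, median and highest value of 5.37, 1183 and 3747 CPM. Old libraries held 12.2, 69.8 and 184 CPM in the same order. In old nanoligomer libraries the values were 41.6, 68.9 and 474 CPM. Non-carrier libraries stood at 7.84, 85.7 and 520 CPM. APP/PS1 libraries were the narrowest set, at 6.64, 16.6 and 28.7 CPM. APP/PS1 nanoligomer libraries spread from 35.6 through 257 to 3521 CPM. By group median the order was young, APP/PS1 nanoligomer, non-carrier, old, old nanoligomer and APP/PS1. Neighbours in that order overlapped, except that the lowest old nanoligomer library (41.6 CPM) lay above the highest APP/PS1 library (28.7 CPM).

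**Figure D1:**
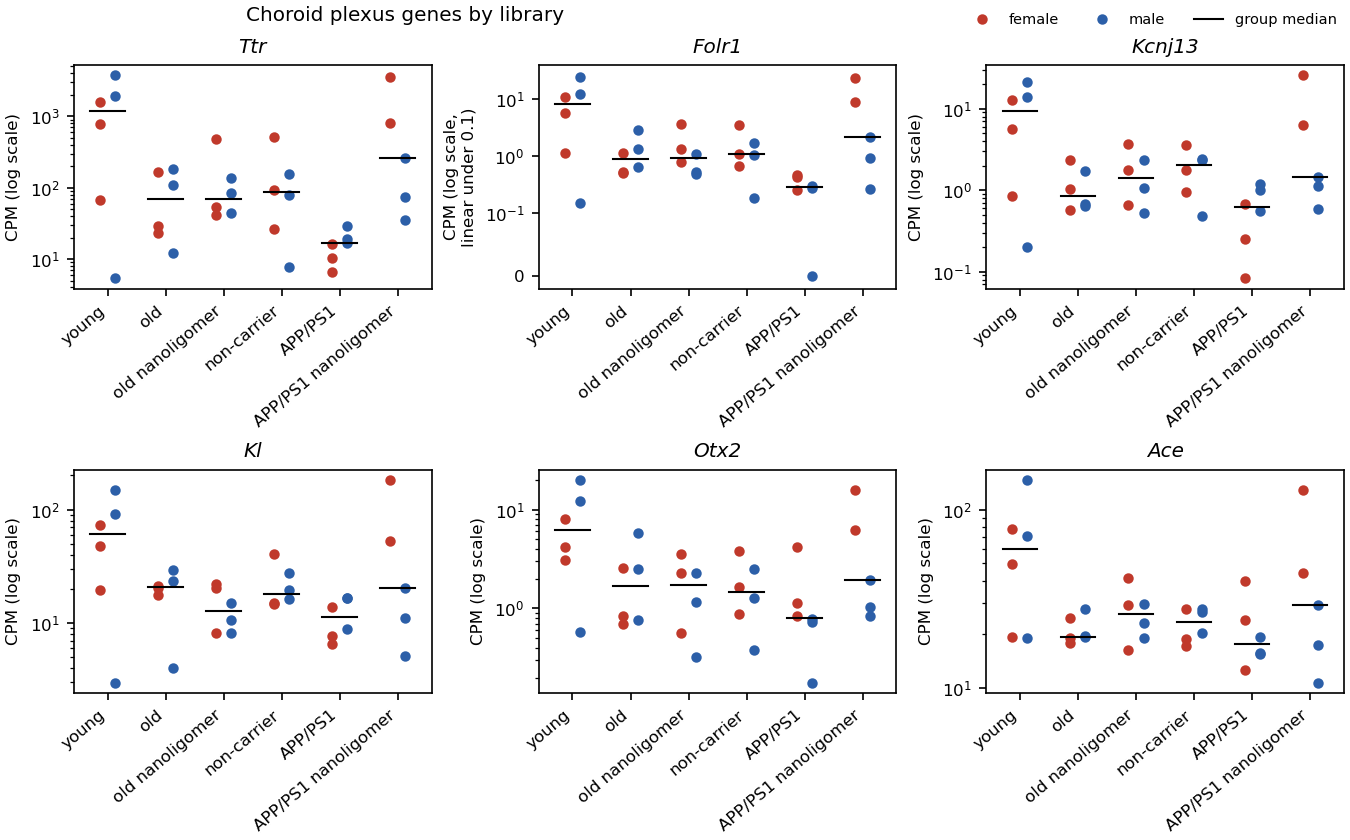
Levels of 6 choroid plexus genes by library, in CPM on a log axis (for Folr1, linear under 0.1 CPM), with females in red, males in blue and a bar at the group median. For Ttr, 4 of 6 young libraries and 2 of 5 APP/PS1 nanoligomer libraries exceed 700 CPM, and the 6 APP/PS1 libraries lie between 6.64 and 28.7 CPM.

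The same few libraries were highest for nearly all of the genes. Young male 1 had the highest level of 16 of the 31 genes, APP/PS1 nanoligomer female 1 that of 14, and APP/PS1 nanoligomer female 2 that of Lmx1a. Young male 1 and APP/PS1 nanoligomer female 1 were each among the 4 highest libraries for 30 genes, young male 3 for 26 and young female 2 for 24. The lowest level was found most often in APP/PS1 female 2, for 8 genes. Summed over the 31 genes, levels ran from 109 CPM in APP/PS1 female 2 to 4863 CPM in young male 1.

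Of the secreted proteins, Sostdc1, an antagonist of BMP and Wnt signals, ranged from 0.602 to 104 CPM with a median of 2.60. F5, coagulation factor V, ranged from 0.457 to 66.5 CPM (median 2.63). Col8a1, a chain of type VIII collagen, ranged from 0.914 to 20.8 CPM (median 1.96), and Wfikkn2, a secreted protein that binds growth factors of the GDF8 and GDF11 type, from 0.223 to 10.8 CPM (median 1.69). These 4 genes were far below Ttr in level and spanned 22.7-fold (Col8a1) to 174-fold (Sostdc1) between libraries.

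Among receptors and binding proteins, Folr1, the folate receptor alpha of this epithelium, lies on chromosome 7 from 101858331 to 101870788 and had a median of 1.03 CPM. Its lowest, median and highest values were 0.15, 8.13 and 24.4 CPM in young, 0.506, 0.883 and 2.87 in old, and 0.478, 0.929 and 3.55 in old nanoligomer libraries. In the transgenic arm they were 0.178, 1.06 and 3.45 CPM in non-carrier, 0, 0.281 and 0.469 in APP/PS1, and 0.260, 2.15 and 23.02 in APP/PS1 nanoligomer libraries. Folr1 thus had the same wide young and treated APP/PS1 groups as Ttr. Kl, the klotho co-receptor for FGF23, was more abundant, with 2.98, 60.5 and 149 CPM in young and 4.02, 20.8 and 29.4 in old libraries. Old nanoligomer libraries held 8.20, 12.8 and 22.1 CPM of Kl, non-carriers 14.8, 18.0 and 40.8, APP/PS1 6.56, 11.4 and 16.7, and APP/PS1 nanoligomer 5.14, 20.2 and 183. Ace, the angiotensin-converting enzyme, had a higher floor, at least 10.7 CPM in each of the 35 libraries. Its lowest, median and highest values were 19.2, 60.3 and 147 CPM in young, 17.8, 19.5 and 27.7 in old, and 16.4, 26.1 and 41.1 in old nanoligomer libraries. Ace stood at 17.2, 23.6 and 27.9 CPM in non-carrier, 12.7, 17.6 and 40.01 in APP/PS1, and 10.7, 29.1 and 129 in APP/PS1 nanoligomer libraries. Prlr, the prolactin receptor, ranged from 0.624 to 65.4 CPM, and Calml4, a calmodulin-like protein, from 0.0279 to 10.4 CPM.

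Channels and transporters made up 12 of the 31 genes. Kcnj13, the inward rectifier Kir7.1, had lowest, median and highest values of 0.201, 9.28 and 21.5 CPM in young, 0.575, 0.854 and 2.33 in old, and 0.521, 1.43 and 3.74 in old nanoligomer libraries. Non-carriers held 0.482, 2.06 and 3.61 CPM of Kcnj13, APP/PS1 libraries 0.0827, 0.617 and 1.18, and APP/PS1 nanoligomer libraries 0.586, 1.43 and 25.7. Aqp1, the water channel, had 0.226, 6.74 and 18.4 CPM in young, 0.269, 0.931 and 1.76 in old, and 0.422, 0.864 and 3.29 in old nanoligomer libraries. Non-carriers held 0.383, 0.706 and 3.42 CPM of Aqp1, APP/PS1 libraries 0.178, 0.463 and 0.882, and APP/PS1 nanoligomer libraries 0.571, 2.18 and 21.1. Outside the young and treated APP/PS1 libraries the highest values were thus 3.74 CPM for Kcnj13 and 3.42 CPM for Aqp1. Clic6, a chloride intracellular channel protein, had 3.44, 25.4 and 89.9 CPM in young, 2.77, 5.32 and 16.2 in old, and 2.76, 5.18 and 18.9 in old nanoligomer libraries. Non-carriers held 1.55, 5.83 and 12.3 CPM of Clic6, APP/PS1 libraries 1.39, 2.35 and 29.5, and APP/PS1 nanoligomer libraries 2.12, 6.35 and 72.3.

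The remaining transporters split into scarce and broadly expressed genes. Slc4a5, a sodium bicarbonate cotransporter, ranged from 0.0537 to 40.9 CPM, a 761-fold range. Its lowest value rests on 2 reads (APP/PS1 female 3) and that of Ttr on 214, so the 2 ranges cannot be ranked. Kcne2, an accessory subunit of potassium channels, reached 21.4 CPM and had no reads in 2 libraries. Tmem72, a membrane protein of the choroid plexus and kidney, reached 30.9 CPM with no reads in 2 libraries, and Steap1, of a metalloreductase family, reached 4.79 CPM with no reads in 6. Trpv4, a cation channel that opens on osmotic stress, ranged from 0.622 to 20.0 CPM. Abca4, a retinoid transporter, ranged from 1.85 to 38.8 CPM, and Slc13a4, a sodium sulfate cotransporter, from 1.27 to 40.7 CPM. Slc29a4, a monoamine transporter, followed Ttr in median per length (13.7 CPM per kb), and Car12, a membrane carbonic anhydrase, came next (4.51 CPM per kb). Those 2 genes spanned only 8.63-fold (Slc29a4, 9.23 to 79.7 CPM) and 9.01-fold (Car12, 9.92 to 89.4 CPM).

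Of the junction and cytoskeleton genes, Cldn2, the pore-forming claudin of leaky epithelia (chromosome X, 139800828 to 139811386), had 0.201, 7.42 and 18.1 CPM in young, 0.171, 0.564 and 2.33 in old, and 0.348, 0.529 and 2.13 in old nanoligomer libraries. Non-carriers held 0.313, 1.26 and 3.70 CPM of Cldn2, APP/PS1 libraries 0, 0.248 and 0.591, and APP/PS1 nanoligomer libraries 0.274, 0.948 and 20.9. Krt8, an epithelial keratin, was lower, with 0.0752, 2.17 and 5.51 CPM in young, 0.245, 0.759 and 2.11 in old, and 0.149, 0.363 and 0.789 in old nanoligomer libraries. Non-carriers held 0.0737, 0.339 and 1.21 CPM of Krt8, APP/PS1 libraries 0.0558, 0.422 and 0.829, and APP/PS1 nanoligomer libraries 0.0651, 0.456 and 3.68. Krt18, its filament partner, lies 23.7 kb from Krt8 on chromosome 15 and reached 8.95 CPM with no reads in 1 library. Perp, a desmosome-associated membrane protein, ranged only from 1.37 to 9.47 CPM. Kcne2 and Clic6 also neighbour each other, 187.6 kb apart on chromosome 16.

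Among the homeobox transcription factors, Otx2, which the epithelium needs to form, had 0.577, 6.15 and 20.1 CPM in young, 0.690, 1.67 and 5.83 in old, and 0.323, 1.72 and 3.55 in old nanoligomer libraries. Non-carriers held 0.381, 1.47 and 3.83 CPM of Otx2, APP/PS1 libraries 0.178, 0.809 and 4.22, and APP/PS1 nanoligomer libraries 0.844, 1.95 and 15.8. Msx1 ranged from 0.469 to 14.1 CPM and Lmx1a from 0 to 2.50 CPM. Rdh5, a retinol dehydrogenase, ranged from 0.725 to 19.2 CPM. Cab39l, an adaptor that activates kinases of the LKB1 and SPAK type, had the narrowest range of the 31 genes, from 17.7 to 60.1 CPM (3.39-fold).

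**Figure D2:**
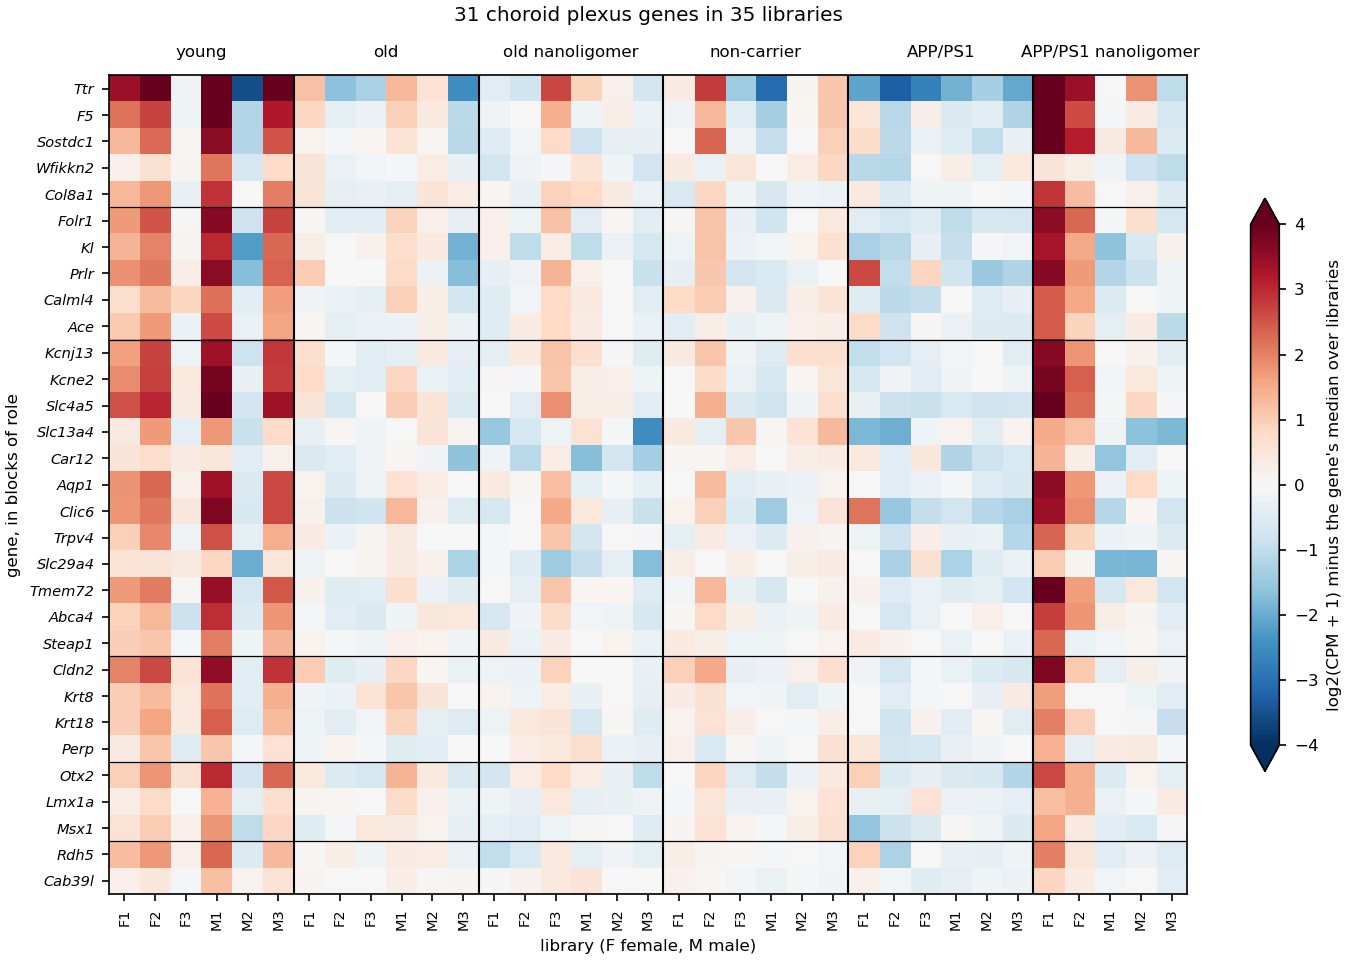
Each row is 1 of the 31 genes in blocks of role and each column 1 of 35 libraries in groups; colour is log2(CPM + 1) minus the gene's median over libraries, and values beyond 4 are drawn at 4. The red columns are shared by most rows: young male 1, 3 and female 2, and APP/PS1 nanoligomer female 1.

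Since Otx2 is among the genes, promoters were read for the letters TAATCC on either strand (GGATTA on the other), the core motif of OTX factors. RefSeq (GRCm38.p6) gave windows for 26 of the 31 genes, from which the 250 bases before the start were read. The motif stood in 3 of the 26 (11.5%: Ace, Abca4 and Otx2), against 7.21% of 27025 genes with a window. The homeodomain letters TAATTA, which share TAAT with that motif, stood in 2 of 26 (7.69% against 5.65%), and the TATA box letters TATAAA, on either strand, in 7 of 26 (26.9% against 14.3%). In Ace the TATA box match, read on the other strand, ends on the first letters of the TAATCC match. Shown first are Slc4a5 and Kcne2, 2 of the genes that followed Ttr most closely, which hold no TAATCC in this window, and then Ace and Abca4, where capitals mark the motif. All 4 run 5′ to 3′ on the plus strand, at chr6:83237125-83237374, chr16:92292139-92292388, chr11:105967698-105967947 and chr3:122044210-122044459. The Slc4a5 start used by RefSeq lies inside the annotated gene, downstream of the outermost start.
Slc4a5: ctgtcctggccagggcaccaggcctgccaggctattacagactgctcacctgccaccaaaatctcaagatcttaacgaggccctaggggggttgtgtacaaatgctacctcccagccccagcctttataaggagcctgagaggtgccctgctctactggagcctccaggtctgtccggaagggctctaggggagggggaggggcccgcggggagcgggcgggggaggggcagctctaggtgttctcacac
Kcne2: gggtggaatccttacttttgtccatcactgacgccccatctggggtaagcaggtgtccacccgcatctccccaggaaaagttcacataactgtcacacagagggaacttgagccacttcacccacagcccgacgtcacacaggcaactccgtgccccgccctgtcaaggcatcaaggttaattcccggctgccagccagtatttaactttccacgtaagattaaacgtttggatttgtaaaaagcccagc
Ace: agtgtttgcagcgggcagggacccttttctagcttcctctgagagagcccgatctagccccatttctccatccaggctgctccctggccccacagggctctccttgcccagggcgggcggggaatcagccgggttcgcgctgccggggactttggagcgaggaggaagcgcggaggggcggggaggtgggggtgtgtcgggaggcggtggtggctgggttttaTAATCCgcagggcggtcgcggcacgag
Abca4: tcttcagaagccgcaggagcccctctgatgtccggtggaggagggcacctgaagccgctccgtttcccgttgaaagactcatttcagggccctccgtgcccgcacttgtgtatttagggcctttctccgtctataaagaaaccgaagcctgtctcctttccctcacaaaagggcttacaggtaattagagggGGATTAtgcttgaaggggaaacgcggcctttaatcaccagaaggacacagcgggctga
The motif starts 27 bases before the start of Ace and 58 bases before that of Abca4, where it is read on the other strand. These matches are letters in a window, not binding sites.

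Old libraries (18 months) were first compared with young ones (8 months). All 31 genes had lower estimates in old libraries, where 51.4% of 16626 genes tested did, with a median log2 fold change of -1.55 over the 31 against -0.00 over all genes. Limma called 0 of the 31 at an adjusted p under 0.05, where it called 6 of all genes (0.0361%). At an unadjusted p under 0.05 there were 13 of 31, all lower, against 2.77% of all genes. EdgeR called 0 of the 31 and 6 of all genes (0.0361%). DESeq2 called 3 of the 31 (Aqp1, Slc4a5 and Steap1) and 123 of all genes (0.742%). The young and old libraries overlapped for each of the 31 genes, where 0.102% of all genes had old libraries below the young ones.

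The largest difference was that of Kcne2, with 304 ± 292 normalized counts in young and 28.3 ± 31.2 in old libraries (mean ± SD, n = 6 each) and a log2 fold change of -3.14 ± 1.02 (SE; limma adjusted p = 0.645). It rests on few reads, 6 to 70 in the old libraries. Ttr had 52603 ± 53247 and 3543 ± 3083 normalized counts and a log2 fold change of -2.79 ± 1.45 (limma adjusted p = 0.851). An exact two-sided permutation test of its log2(CPM + 1) gave p = 0.106, or 0.141 adjusted over 4 comparisons. Among the other secreted proteins the log2 fold changes were -1.90 for F5, -1.67 for Sostdc1, -1.49 for Col8a1 and -0.62 for Wfikkn2. Receptors and binding proteins stood at -1.99 for Folr1, -1.68 for Calml4, -1.55 for Prlr, -1.22 for Ace and -1.15 for Kl. Beside Kcne2, the channels and transporters had log2 fold changes of -2.50 for Slc4a5, -2.45 for Tmem72, -2.10 for Aqp1, -1.99 for Steap1, -1.96 for Kcnj13 and -1.89 for Clic6. Smaller ones were found for Trpv4 (-1.09), Abca4 (-1.06), Car12 (-0.78), Slc13a4 (-0.51) and Slc29a4 (-0.25). The junction and cytoskeleton genes gave -2.52 for Cldn2, -1.86 for Krt18, -0.98 for Krt8 and -0.71 for Perp. The transcription factors gave -1.61 for Otx2, -0.63 for Msx1 and -0.51 for Lmx1a, and the last 2 genes -1.08 for Rdh5 and -0.33 for Cab39l. With each of the 12 libraries left out in turn 0 of the 31 estimates changed sign, but 11 moved by over 1.5-fold. That was so for 10 genes without young male 1, 9 without young male 2, 3 without old male 3, 2 without young female 2, young male 3 or old male 1, and 1 without old male 2. The estimate of Lmx1a was -0.04 without young male 1 and -1.27 without young male 2, and that of Slc29a4 -0.05 without old male 3. The median of the 31 ran from -2.24 without young male 2 to -1.11 without young male 1.

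Other cell markers moved in this comparison too. All 20 ependymal cilia genes had negative estimates (median log2 -0.69), with summed levels of 50.8 to 253 CPM in young and 43.1 to 169 CPM in old libraries. All 12 striatal genes were negative (median -0.57), as were 12 of 13 thalamus and habenula genes (median -0.39), and all 12 hippocampal neuron genes were positive (median 0.38). Their part in the result was not tested. Without the 2 libraries above 700 CPM of striatal markers, young male 2 and old male 3, a choice made after seeing the data, the median of the 31 genes was -1.85 and limma called 1 of them, Calml4 (log2 fold change -1.82, adjusted p = 0.0404). Over all genes the count of calls in that fit stayed within 1.5-fold of the 6 (0.0361%) called with all libraries. Leaving out young male 2 alone moved the Ttr difference to -3.995 in log2(CPM + 1) (exact permutation p = 0.0173), so that library decided this value. Other differences between the cohorts cannot be told apart from age.

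The second comparison asked what nanoligomer treatment changed at 18 months. It shares the old libraries with the first. Of the 30 genes tested, 16 had positive and 14 negative estimates (median log2 fold change 0.07), where 49% of 16517 genes were positive, and limma called 0 of the 30, as of all genes (0%). At an unadjusted p under 0.05 there were 3, all lower: Lmx1a (-1.74), Slc29a4 (-0.72) and Rdh5 (-0.63), each with a limma adjusted p of 0.678, where 3.6% of all genes were lower. EdgeR called 0 of the 30 and of all genes (0%), and DESeq2 0 of the 30 and 2 of all genes (0.0121%). Steap1 was not tested, since its mean was under 10 normalized counts.

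Ttr had 3312 ± 2882 normalized counts in old and 5140.5 ± 6078 in treated old libraries. Its log2 fold change was 0.70 (95% interval -0.94 to 2.34), and the exact permutation test gave p = 0.435. Of the other genes the widest positive estimate was that of Kcne2 (0.86), and after it came Tmem72 (0.50), Kcnj13 (0.40), Perp (0.38) and Col8a1 (0.29). Ace (0.25), F5 (0.21), Calml4 (0.20), Slc4a5 (0.19), Aqp1 (0.17) and Prlr (0.15) were positive by less, and Clic6 (0.10), Cab39l (0.07), Folr1 (0.07) and Krt18 (0.06) lay near 0. Negative estimates were those of Slc13a4 (-0.94), Krt8 (-0.91), Wfikkn2 (-0.45), Kl (-0.36), Otx2 (-0.34), Car12 (-0.33), Msx1 (-0.31), Sostdc1 (-0.23), Abca4 (-0.14), Trpv4 (-0.12) and Cldn2 (-0.07). Hence no direction was shared by these genes over both sexes. Within females 21 of 30 estimates were positive (median 0.38), and within males 22 of 30 were negative (median -0.43). Limma called the difference between the sexes for 0 of these genes and for 0 of all 16517. Of other markers, 12 of 12 hippocampal neuron genes (median log2 -0.59) and 20 of 23 meningeal and stromal fibroblast genes (median -0.42) were negative. At an unadjusted p under 0.05, 7 of the 23 were lower, where 3.6% of all genes were, and 2 higher. There were 0 such hippocampal neuron genes. Of 12 striatal genes 9 were positive (median 0.50), and of 20 ependymal genes 12 negative (median -0.13). The part of these markers in the result was not tested. Old nanoligomer female 3, the library with the most Ttr of its group (474 CPM), also held the most striatal marker RNA of the 35 libraries (2678 CPM) and the least hippocampal neuron marker RNA of its group (289 CPM). Without it and old male 3 the Ttr estimate was -0.43 and the median of the 30 genes -0.50. Of the 30 estimates, 27 moved by over 1.5-fold in at least 1 of the 12 fits that leave out a library.

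The third comparison asked what the transgenes changed at 4 months. Of 30 genes tested, 29 had lower estimates in APP/PS1 than in non-carrier libraries, where 49.7% of 16475 genes did, with a median log2 fold change of -0.83 over the 30 against 0.00 over all genes. The exception was Col8a1 (0.15). Limma called 0 of the 30 and 8 of all genes (0.0486%), and edgeR called 0 of the 30 and 8 of all genes (0.0485%). At an unadjusted p under 0.05 there were 13 of 30, all lower, against 5.46% of all genes. DESeq2 called 5: Ttr, Folr1, Slc4a5, Cldn2 and Msx1, where it called 254 of all genes (1.55%). The groups overlapped for each of the 30 genes, where 0.413% of all genes had APP/PS1 libraries below the rest.

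Msx1 had the smallest p, with 161 ± 37.8 normalized counts in non-carrier and 76.3 ± 42.1 in APP/PS1 libraries (n = 6 each) and a log2 fold change of -1.29 ± 0.372 (limma adjusted p = 0.244). Slc13a4 followed with -1.32 ± 0.411 (adjusted p = 0.294). Ttr had 5397 ± 7052 and 602 ± 292 normalized counts and a log2 fold change of -2.25 ± 0.799 (limma adjusted p = 0.364). The exact permutation test of Ttr gave p = 0.0303, which was 0.0606 after adjustment over 4 comparisons. Leaving out 1 library took that unadjusted p to between 0.00866 and 0.0606, and it passed 0.05 without APP/PS1 female 2 or 3 or non-carrier female 1 or 2 or male 2 or 3. The other secreted proteins gave -1.24 for Wfikkn2, -1.02 for Sostdc1 and -0.74 for F5. Receptors and binding proteins gave -2.24 for Calml4, -2.10 for Folr1, -0.92 for Kl, -0.20 for Ace and -0.18 for Prlr. Among channels and transporters the estimates were -2.10 for Slc4a5, -1.69 for Kcnj13, -1.41 for Tmem72, -0.86 for Aqp1, -0.79 for Kcne2, -0.66 for Clic6, -0.65 for Slc29a4, -0.56 for Car12, -0.55 for Trpv4 and -0.34 for Abca4. Cldn2, the largest estimate of all 30, stood at -2.53, with Krt18 at -1.15, Perp at -0.36 and Krt8 at -0.30. That of Cldn2 rests on few reads, 0 to 22 in the APP/PS1 libraries. Lmx1a stood at -1.53, Otx2 at -0.64, Rdh5 at -0.38 and Cab39l at -0.14. With 1 library left out, 17 of the 30 estimates moved by over 1.5-fold in at least 1 of 12 fits, at most 9 of them at once (without APP/PS1 female 2), while the median stayed between -1.11 and -0.59.

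Some genes stood apart from Ttr in APP/PS1 female 1. This library held 32.2 CPM of Prlr, 29.5 CPM of Clic6 and 4.22 CPM of Otx2, the highest of its group for each, at 16.2 CPM of Ttr and 0.469 CPM of Msx1. Its summed striatal and thalamus and habenula markers were 2490 and 405 CPM, and it had the lowest hippocampal neuron sum of its group (511 CPM). In the comparison as a whole, 12 of 12 striatal genes had positive estimates (median log2 1.10), 11 of 12 hippocampal neuron genes negative ones (median -0.92), and 22 of 23 meningeal and stromal fibroblast genes negative ones (median -0.63). Estimates were also negative for 16 of 19 ependymal genes (median -0.30) and 5 of 5 blood genes (median -0.46). At an unadjusted p under 0.05, 8 of 12 hippocampal neuron and 11 of 23 fibroblast genes were lower. So were 3 of 5 blood and 0 of 19 ependymal genes, against 5.46% of all genes. Of the 12 striatal genes 5 were higher at that limit, against 4.72% of all genes. Summed fibroblast markers were 563 to 1370 CPM in non-carrier and 467 to 785 CPM in APP/PS1 libraries. Non-carrier female 2, with the lowest of these sums in its group, also had the least Slc13a4 (8.66 CPM) and the most Ttr (520 CPM). Non-carrier male 3, with the highest sum, had the most Slc13a4 (29.8 CPM). The part of these other markers in the result was not tested.

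The fourth comparison asked what nanoligomer treatment changed in APP/PS1 mice, and it shares the APP/PS1 libraries with the third. All 31 genes had higher estimates in treated libraries (n = 5 against 6), where 49.4% of 16124 genes did, with a median log2 fold change of 1.32 over the 31 against -0.00 over all genes. Limma called 0 of the 31, as of all genes (0%), and the lowest adjusted p of the 31 was 0.997. At an unadjusted p under 0.05 there were 16, all higher, against 1.45% of all genes. EdgeR called 0 of the 31 and of all genes (0%), and DESeq2 4 (Ttr, Folr1, Slc4a5 and Aqp1) among its 7 called genes (0.0426%). Without treated female 1 the median of the genes was 0.82 and 18 of the 30 still tested moved by over 1.5-fold, and over the 11 fits that leave out 1 library each the median ran from 0.82 to 1.56. For Ttr and Slc4a5 each of the 5 treated libraries lay above the 6 untreated ones, which held for 0.155% of all genes in this direction.

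Ttr had 454 ± 219.8 normalized counts in APP/PS1 (n = 6) and 25981 ± 40769.8 in treated libraries (n = 5), a log2 fold change of 4.42 ± 0.925 (limma adjusted p = 0.997). In CPM the untreated libraries held 6.64, 10.5, 16.2, 16.9, 19.0 and 28.7, and the treated ones 35.6, 73.2, 257, 815 and 3521. The exact permutation test gave p = 0.00433, the smallest this design allows, and 0.0173 after adjustment over 4 comparisons. Leaving out any 1 of the 11 libraries gave unadjusted p-values of 0.00794 to 0.00952. Since the groups did not overlap, these too were the smallest those designs allow, so this step could not test the result. The result does not hold with the low-depth treated female, which had 0 Ttr reads. By counting error alone, 0 counts at 0.913 M reads allow a level of up to 3.28 CPM (3 counts). That limit cannot place Ttr in this library, since Ace and Slc29a4 also had 0 reads there. Their lowest levels in the other 35 libraries were 10.7 and 9.23 CPM. With the low-depth female the permutation test gave p = 0.13 and the limma log2 fold change was 2.13 (adjusted p = 0.578). Slc4a5 had 6.04 ± 5.25 and 294 ± 474 normalized counts, a log2 fold change of 4.31 ± 0.855 (limma adjusted p = 0.997). In CPM the 6 untreated libraries held 0.0537 to 0.607 of Slc4a5 and the treated ones 0.844, 0.846, 2.46, 8.16 and 40.9.

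The other secreted proteins gave log2 fold changes of 2.91 for Sostdc1, 2.41 for F5, 1.16 for Col8a1 and 0.20 for Wfikkn2. Receptors and binding proteins gave 3.68 for Folr1, 2.48 for Calml4, 1.35 for Kl, 1.28 for Prlr and 0.81 for Ace. Among channels and transporters the estimates were 3.01 for Kcne2, 2.57 for Aqp1, 2.54 for Kcnj13, 2.26 for Tmem72, 1.74 for Clic6, 1.32 for Trpv4, 1.23 for Abca4, 0.58 for both Slc13a4 and Steap1, 0.43 for Car12 and 0.06 for Slc29a4. Cldn2 stood at 3.08, Krt18 at 0.86, Perp at 0.75 and Krt8 at 0.58. The transcription factors gave 2.57 for Lmx1a, 1.89 for Otx2 and 1.11 for Msx1, and the last 2 genes 0.72 for Rdh5 and 0.39 for Cab39l. In this comparison 16 of 19 ependymal genes were positive (median 0.17), 11 of 12 striatal genes negative (median -0.34) and 18 of 23 fibroblast genes negative (median -0.17). Their part in the result was not tested.

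**Figure D3:**
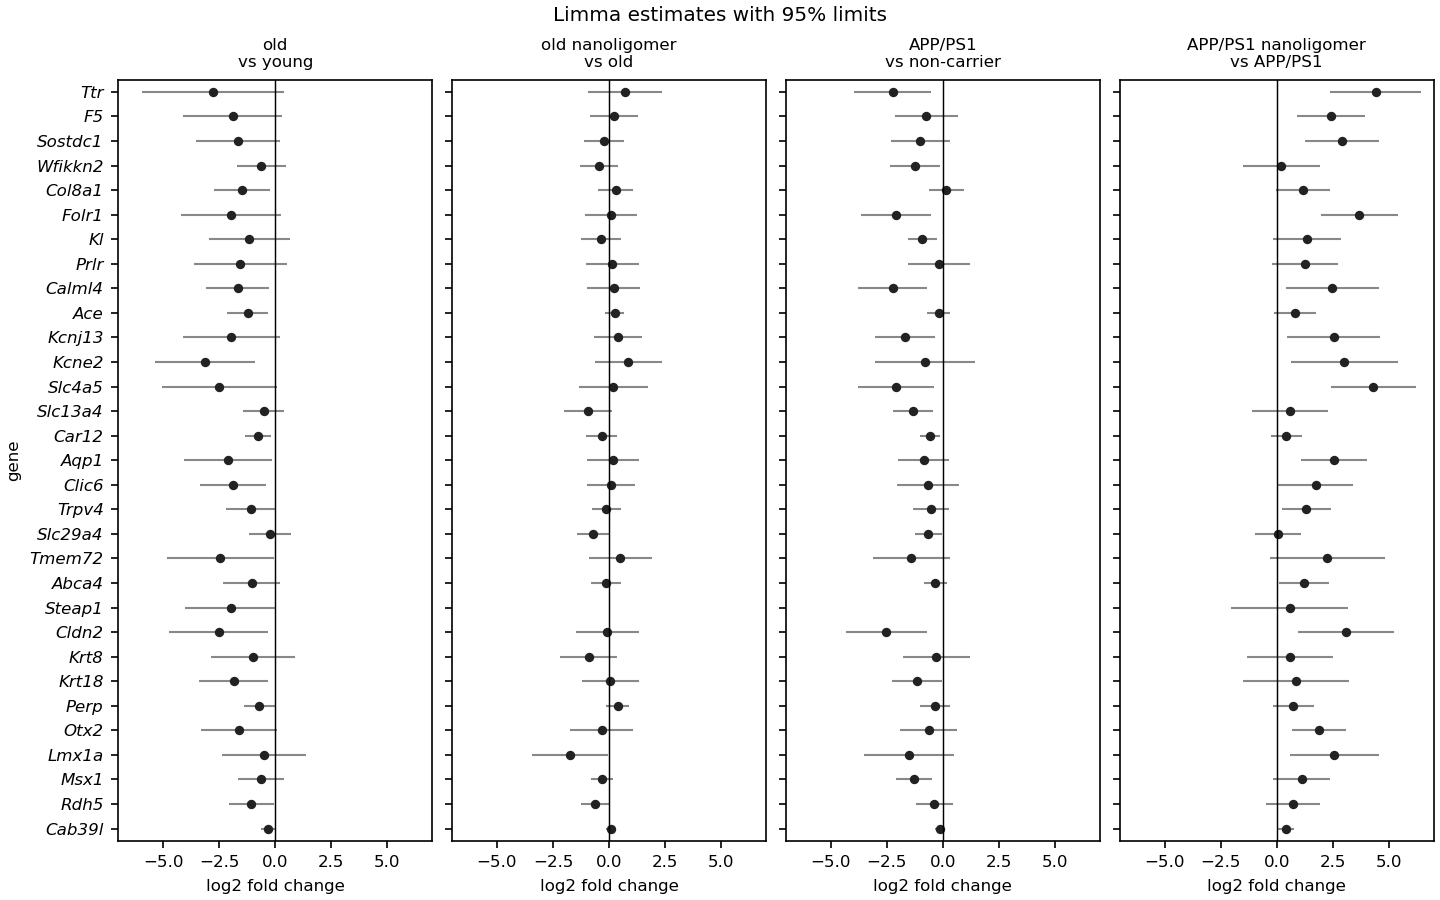
Limma log2 fold changes (dots) with 95% limits (lines) of the 31 genes in the 4 comparisons; Steap1 was not tested in old nanoligomer against old and in APP/PS1 against non-carrier. All 31 dots lie left of 0 for old against young and right of 0 for APP/PS1 nanoligomer against APP/PS1, and 0 of the genes was called in any panel.

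The treated APP/PS1 libraries with the most choroid plexus RNA were both females. Within females (2 treated, 3 untreated) the 31 genes had a median log2 fold change of 2.98 and 24 had an unadjusted p under 0.05, all higher, against 6.56% of all genes in either direction. Limma called Ttr (7.36 ± 0.782, adjusted p = 0.0324), the only gene of 16124 called there (0.0062%), and Abca4 came next of the 31 (2.92, adjusted p = 0.0599). Within males (3 against 3) the median was 0.33, 3 genes had an unadjusted p under 0.05, against 1.54% of all genes, and limma called 0 of 16124. The difference between the sexes was called for 0 of the 31 and 0 of all genes. For Ttr it was -5.28 ± 1.05, males minus females (adjusted p = 0.773). At an unadjusted p under 0.05 there were 15 of 31, against 4.52% of all genes. The call of Ttr in females was lost in the limma fit without APP/PS1 female 3 or male 1, 2 or 3, or without treated female 1 or male 1 (adjusted p of 0.00567 to 0.135 over 11 such fits), and with the low-depth female (log2 fold change 2.19, adjusted p = 0.604). In the other comparisons limma called 0 of these genes within either sex or for the difference between sexes. Of all genes it called 0.00601% in females and 0.018% in males for old against young, and 0.00607% and 0.0364% for APP/PS1 against non-carrier.

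Whether treatment acted differently in APP/PS1 and in old mice was tested in 1 fit of 23 libraries, whose 2 tables share none. The 2 sets of mice differ in age, genotype and cohort together, and these cannot be told apart here. All 30 genes tested had a larger estimate in APP/PS1 than in old mice, with a median difference of 1.58 on the log2 scale. The share of all genes with a larger estimate was not counted. Limma called 0 of the 30 and 0 of 15990 genes, and the lowest adjusted p of the 30 was 0.918. At an unadjusted p under 0.05 there were 13 of 30, against 4.35% of all genes. Lmx1a had the widest difference (4.31 ± 1.23), followed by Slc4a5 (4.12 ± 1.17), Ttr (3.72 ± 1.29) and Folr1 (3.61 ± 0.984). Apart from that of Ttr these rest on few reads. Lmx1a had 0 to 29 reads in old nanoligomer and 0 to 36 in APP/PS1 libraries. In APP/PS1 libraries Slc4a5 had 2 to 22 reads and Folr1 0 to 17.

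Within the 35 libraries the genes kept different distances from Ttr. Spearman's rho with Ttr, over log2(CPM + 1), was above 0.8 for 10 of 30 genes and highest for Slc4a5 (rho = 0.958, r = 0.954, permutation p = 1e-05 each, the smallest that 100000 permutations can give, 2e-05 for rho after adjustment over 30 relations). For Slc4a5 r was 0.947 without young male 1 and APP/PS1 nanoligomer female 1, the 2 libraries farthest from the median of Ttr, 0.961 in the 18 libraries of the aging arm and 0.942 in the 17 of the transgenic arm. Folr1 (rho = 0.924) and Kcne2 (rho = 0.900) followed. The weakest relations were those of Car12 (rho = 0.398, r = 0.472, adjusted permutation p of 0.0193 and 0.00409), Perp (rho = 0.418), Slc29a4 (rho = 0.449) and Slc13a4 (rho = 0.487). For Car12 r was 0.347 without the 2 farthest libraries. All 30 relations had an adjusted permutation p under 0.05 for rho. The share of all genes that passes this limit, or a rho of 0.8, was not computed, so these counts have no background to be set against. The points share sequencing depth and total RNA composition, and libraries of 6 groups are pooled in them.

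In the 9 libraries with the most Ttr, several genes stood in a near constant ratio to it. Kcnj13 had 5.59 to 8.18 reads per 1000 Ttr reads, a 1.46-fold range, Slc4a5 8.17 to 13.3 (1.62-fold), Folr1 6.43 to 11.0 (1.72-fold) and Otx2 4.48 to 7.69 (1.72-fold). The ratio spread more for Perp (8.09-fold), Car12 (7.68-fold) and Cab39l (7.44-fold). For Cab39l it was highest, 98.6 reads per 1000 Ttr reads, in the library with the least Ttr of the 9.

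With all libraries, the slope on Ttr of Sostdc1 had the highest ratio of the transgenic to the aging arm. It had 11.45 reads per 1000 Ttr reads in young male 1, 10.2 in young male 3 and young female 2, 9.85 in young female 1 and 10.7 in old nanoligomer female 3. In the transgenic arm it had 29.7 in APP/PS1 nanoligomer female 1, 37.9 in female 2, 30.7 in male 2 and 33.1 in non-carrier female 2. Among these 9 libraries, those with the most Ttr, the 5 of the aging arm and the 4 of the transgenic arm did not overlap. Sostdc1 was picked here for its extreme ratio, so this is no test. The untreated non-carrier lay within the range of the 3 treated libraries. Over all libraries the arms overlapped, as with 41.8 in young female 3 and 28.3 in non-carrier female 1. Regression of CPM on Ttr CPM gave slopes of 10.6 (aging) and 29.6 (transgenic) per 1000 Ttr, a ratio of 2.79, and 3.75 without the highest library of each arm. Over 30 genes the median ratio of slopes was 1.06, and 26 lay within 1.5-fold, or 17 without the highest library of each arm. Beyond 1.5-fold beside Sostdc1 were Car12 (1.96) and Tmem72 (1.85), whose ratios were 0.70 and 1.26 without the highest library of each arm, and Wfikkn2 (0.16, or 0.30 without them). Without those libraries the highest ratio was that of Lmx1a (4.37), above Sostdc1, and Calml4 (2.34), Abca4 (1.998), Cab39l (1.87) and Folr1 (1.52) also lay above 1.5. Below the same limit were then Cldn2 (0.62), Rdh5 (0.40), Krt8 (0.40) and Slc29a4 (0.39), while Perp and Steap1 had transgenic slopes of -0.89 and -0.00039 per 1000 Ttr. These ratios were compared as a description, and age and cohort differ between the arms together and cannot be told apart.

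**Figure D4:**
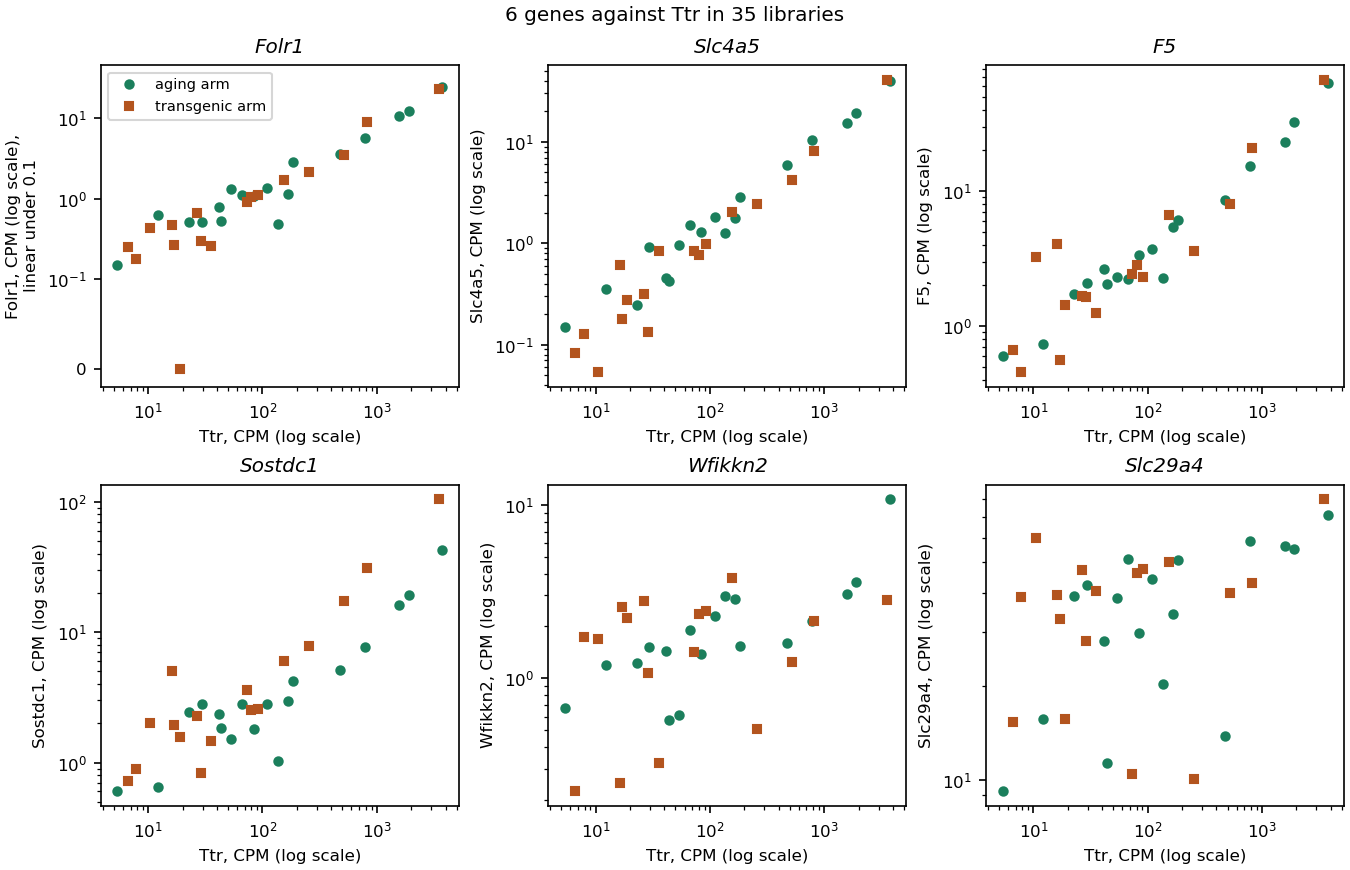
Levels of 6 genes against Ttr in 35 libraries, both axes in CPM on log scales (for Folr1, linear under 0.1 CPM), with circles for the aging and squares for the transgenic arm. For Folr1 and Slc4a5 both arms lie near 1 line, and so they do for F5, except that APP/PS1 female 1 and 3 lie above it. For Sostdc1 the transgenic libraries with over 200 CPM of Ttr lie above the aging ones, and for Slc29a4 (rho = 0.449) the points scatter.

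Outside the 31, the genes most like Ttr by Spearman's rho over 35 libraries (16598 genes ranked, gene models without a name left out of the naming) were Wdr86 (rho = 0.898), Col8a2, the partner chain of Col8a1 (0.827), Prr32 (0.776), Lbp, the lipopolysaccharide binding protein (0.768), Drc7 (0.763), Rbm47 (0.763), Enpp2, the secreted enzyme autotaxin (0.7625), C1qtnf5 (0.753), Mfrp (0.753) and Wfdc2 (0.748). C1qtnf5 and Mfrp had nearly the same values, as overlapping genes whose reads cannot be told apart. Wdr86 ranged from 0.0269 to 6.31 CPM, and Enpp2 from 118 to 1618 CPM, both highest in young male 1.

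A wider list of 50 genes of the choroid plexus and of fluid secretion had smaller differences. In old against young 40 of 48 tested were lower (median log2 -0.40), with 14 lower at an unadjusted p under 0.05 (2.77% of all genes), and the smallest p were those of Sulf1 (-1.46), Abcc1 (-0.21), Vat1l (-1.31) and Htr2c (-0.76). In treated old libraries 28 of 46 were lower (median -0.06), led by Stra6 (-0.65), Rbp4 (0.61), Glis3 (-0.87) and Slc22a8 (-0.35). In APP/PS1 against non-carrier 33 of 45 were lower (median -0.15), with 12 lower and 1 higher at an unadjusted p under 0.05 (5.46% and 4.72% of all genes), led by Stra6 (-0.80), Igf2 (-1.06), Lbp (-1.21) and Gmnc (-1.99). In treated APP/PS1 libraries 40 of 46 were higher (median 0.24), with 9 higher at an unadjusted p under 0.05 (1.45% of all genes), led by Enpp2 (1.24), Rbm47 (1.67), Slc2a12 (1.03) and 1500015O10Rik (2.34). Limma called 0 of this list in each of the 4 comparisons. Markers of macrophages of the choroid plexus and brain borders summed to 3.43 to 13.8 CPM over the 35 libraries, with 5.28 CPM as the median of treated APP/PS1 and 7.22 CPM as that of APP/PS1 libraries.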

How the data were processed

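The authors deposited 4 tables of size-factor-normalized counts, a signal scaled per library within each table of 12 libraries and, per the file headers, listed by gene symbol. STAR, DESeq2 and the mm10 build appear in the submitters' processing notes, with no role or version, and no counting tool or annotation is named there. Here, whole reads were recovered by dividing each column by its common step: 100% of values lay within 0.001 reads of a whole number. The 12 libraries that stand in 2 tables had identical reads in both. Coordinates are those of GENCODE on GRCm38, and promoters those of RefSeq on GRCm38.p6, matched by symbol.

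Limma 3.58.1 (R 4.3.3) was fitted within each table to log2(normalized count + 1), on genes whose mean reached 10; the model held group and sex, with an intensity trend. A gene was called when its p, adjusted by Benjamini-Hochberg over all genes tested, was under 0.05. Fold changes on this scale understate changes of low genes. EdgeR 4.0.16 (quasi-likelihood) and DESeq2 1.42.0 on the recovered reads, other scalings, pseudocounts, filters, terms and left-out libraries were alternatives. Fits were tested on simulated data. Levels are CPM from recovered reads, since tables were normalized separately, and exact permutation tests and correlations used scipy 1.17.1. For APP/PS1 nanoligomer male 3, column name and title disagree in 1 letter; sex and number match. The number of value columns left out is 0.

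The members and lists were chosen with earlier results of these data known. By rule every gene was named with its level and estimates, 10 with values in each group, the 4 smallest p of the wider choroid plexus list where 0 were called, and the 10 genes most like Ttr.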

Additional observations from a re-analysis of the deposited data

Results flagged for a closer look

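Of 60 sets tested (10 genes in 6 groups), 19 held a library whose gap to its nearest neighbour exceeded Dixon's 95% limit for the group's range. For independent sets of normal values chance gives about 1 in 20. That rate does not apply here, since CPM were used without logs and the same libraries were high for most genes. APP/PS1 nanoligomer female 1 stood above its group for 7 of the 10 genes, with 3521 CPM of Ttr, 183 of Kl, 25.7 of Kcnj13, 21.1 of Aqp1, 20.9 of Cldn2, 3.68 of Krt8 and 129 of Ace. Old nanoligomer female 3 stood above its group for Ttr (474 CPM), Folr1 (3.55), Aqp1 (3.29), Cldn2 (2.13) and Clic6 (18.9). Non-carrier female 2 did so for Ttr (520 CPM) and Aqp1 (3.42), and old male 1 for Folr1 (2.87 CPM), Clic6 (16.2) and Otx2 (5.83). APP/PS1 female 1 stood above its group for Clic6 (29.5 CPM) and Otx2 (4.22) only, with Ttr at 16.2 CPM.

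The low-depth library, APP/PS1 nanoligomer female 3, which entered no comparison, had 11 of the 31 genes above the highest level of the other 35 libraries. The same held for 25.8% of the 16598 genes with a mean of at least 10 reads in those libraries, and 50.8% of them had 0 reads in it. Otx2 stood at 558 CPM (510 reads), against at most 20.1 CPM elsewhere, F5 at 397, Lmx1a at 311, Col8a1 at 278, Slc4a5 at 218, Perp at 196, Kcnj13 at 182, Prlr at 153, Cab39l at 116, Msx1 at 103 and Cldn2 at 32.8 CPM. In the same library 12 of the 31 genes, Ttr, Folr1, Aqp1 and Kcne2 among them, had 0 reads. Its summed ependymal markers were 1590 CPM against at most 253 CPM elsewhere, its border macrophage markers 521 against 13.8, its thalamus and habenula markers 2421 against 1092, and its blood markers 0 against at least 46.1.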

How the results depend on the processing

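Over 3019 estimates of single genes under other settings, 85 changed sign, 55 of them in treated against untreated old mice and 0 in old against young; the cause was not tested. With DESeq2, 123 genes were called in old against young (3 of the choroid plexus genes), 2 in treated old mice, 254 in APP/PS1 against non-carrier (5) and 7 in treated APP/PS1 mice (4). Library weights gave 14 of 16626 genes in old against young. In APP/PS1 against non-carrier they gave 548 of 16475 genes, among them 2 of the 30 choroid plexus genes tested (Car12 and Slc29a4). Without a filter, 1 gene was called in treated APP/PS1 mice. Without the libraries high in striatal markers (chosen after seeing the data), 1 choroid plexus gene was called in old against young, where the count over all genes stayed within 1.5-fold of the main one (6). In APP/PS1 against non-carrier 21 genes were called. The same step moved the Ttr difference to -3.57 in old against young (exact permutation p = 0.0317) and to -0.21 in treated old mice (exact permutation p = 0.786). With the low-depth library the Ttr difference in treated APP/PS1 mice was 2.82 (exact permutation p = 0.13). Replicate numbers did not pair the libraries (correlations of -0.25 to 0.29 between same-numbered libraries). With a replicate block 1 gene was called in old against young, 10 in APP/PS1 against non-carrier, and 0 choroid plexus genes in each comparison.

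In treated old mice the signs of single genes turned as follows. Without libraries high in striatal markers the log2 fold changes were -0.21 for Aqp1, -0.58 for Calml4, -0.48 for Clic6, -0.52 for F5, -0.49 for Folr1, -0.33 for Krt18, -0.66 for Prlr, -0.76 for Slc4a5, -0.22 for Tmem72 and -0.43 for Ttr. With library weights they were -0.16 for Calml4, -0.14 for Clic6, -0.059 for Prlr and -0.17 for Slc4a5. EdgeR gave -0.0049 for Krt18 and -0.014 for Prlr, and DESeq2 -0.017 and -0.018. Leaving out 1 library gave -0.40 to 0.0092 for Abca4, -0.20 to 0.43 for Aqp1, -0.20 to 0.56 for Calml4, -0.47 to 0.34 for Cldn2, -0.29 to 0.42 for Clic6, -0.16 to 0.51 for F5, -0.31 to 0.43 for Folr1, -0.16 to 0.55 for Krt18, -0.66 to 0.090 for Otx2, -0.33 to 0.48 for Prlr, -0.34 to 0.525 for Slc4a5, -0.56 to 0.028 for Sostdc1 and -0.36 to 0.10 for Trpv4.

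In APP/PS1 against non-carrier, Prlr was 0.14 with edgeR and 0.082 with DESeq2, and library weights gave 0.34 for Kcne2 and 0.026 for Krt8. Leaving out 1 library gave -0.033 to 0.45 for Col8a1, -0.70 to 0.19 for Krt8, -0.73 to 0.18 for Prlr and -0.67 to 0.0095 for Rdh5. In treated APP/PS1 mice, Slc29a4 was -0.043 without the sex term and -0.35 with library weights, which gave -0.29 for Wfikkn2. The low-depth library turned Ace (-0.93), Krt18 (-0.055), Krt8 (-0.11), Slc29a4 (-1.64) and Steap1 (-0.035). Leaving out 1 library gave -0.26 to 1.09 for Krt8, -0.26 to 0.30 for Slc29a4 and -0.29 to 0.64 for Wfikkn2.

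Leaving out 1 library gave 4 to 11 called genes in old against young (11 without old female 1) and 6 to 256 in APP/PS1 against non-carrier (256 without APP/PS1 female 3, 21 without female 1). The test of the treatment difference called 0 to 2 genes (2 without APP/PS1 male 3). Tests of the difference between the sexes called 0 to 2 genes in old against young (2 without old female 1, 1 without young female 2), 0 to 1 in treated old mice (1 without old female 1) and 0 to 1 in treated APP/PS1 mice (1 without treated female 1). In APP/PS1 against non-carrier that test called 0 to 158 (158 and 1 choroid plexus gene, Car12, without APP/PS1 female 2, and 1 gene without female 1). The Ttr difference was -3.995 to -2.15 in old against young and -2.80 to -1.63 in APP/PS1 against non-carrier. In females of treated APP/PS1 mice the Ttr estimate was 6.28 to 8.43. Depth limits the genes near 0 reads, such as Steap1.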
